A study of Mus musculus with 6 samples.

Results

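Molecular chaperones bind unfolded or partly folded proteins and keep them from aggregating until they reach their folded state. HSP70 proteins do this in cycles driven by ATP, J proteins bring them clients, nucleotide exchange factors reset them, HSP90 proteins finish the folding of kinases and receptors, and the barrel-shaped chaperonins enclose whole proteins. Cytosol, mitochondria and endoplasmic reticulum (ER) each have their own set, and genes of these sets are classically induced by the heat shock factor HSF1 in the cytosol and by the unfolded protein response in the ER. Rapidly growing leukaemia cells make much protein and are known to depend on these systems.

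The genes described here are the 84 chaperone genes of 23306 genes with an identifier in the deposited table. They were chosen by symbol: the families Hspa, Hspb, Hsp90, Dnaja, Dnajb, Dnajc, Pdia and Pfdn, the mitochondrial chaperonin, the subunits of the cytosolic chaperonin TRiC, and Hsph1, Trap1, Sdf2l1, Calr and Canx, each with a mean of at least 10 normalised reads over the libraries. Of 88 rows with such symbols, Dnajc19-ps was left out by its name, and Dnajb8, Dnajc22 and Dnaja4, with means of 2.52, 7.85 and 8.15, lay under the minimum; Dnajb7 (14.0) and Dnajc6 (19.9) lay just above it. By textbook location 42 of the 84 act in the cytosol, 9 in mitochondria and 20 in the ER. The other 13, set apart here as other, are J proteins of the nucleus, vesicles or unsettled location and Hspb11 and Hspbap1, which share the Hspb prefix without being small heat shock proteins. The symbols match the label in that every HSP90 gene, all 8 TRiC subunits and the chief HSP70 genes of the 3 compartments were detected in every library.

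PolyA RNA came from isogenic mouse T-cell acute lymphoblastic leukaemias (T-ALL, a cancer of immature T cells) of C57BL/6 background, taken from bone marrow. Both groups held 3 samples: Phf6 wild type (WT) and Phf6 knockout (KO), in which a tamoxifen-inducible Cre recombinase deleted Phf6, which lies on the X chromosome, codes for a chromatin-associated nuclear protein and is often mutated in human T-ALL. Tamoxifen or corn oil alone was injected, and which of them each animal received is not given per sample, so effects of the drug and of the deletion cannot be told apart. The labels give no age and no driver for the Cre, and do not state whether each sample was a different animal, so p-values measure only the spread between these samples. Each library held 46067511 to 54953145 reads assigned to genes, and values are these reads divided by 1 size factor per library (normalised reads). Phf6 itself had 4941 ± 645 normalised reads in WT and 1958 ± 329 in KO (SD, n = 3), lower in every KO library. Markers of other cells moved with the groups: the 20 granulocyte markers were higher on the log2 scale without exception, and their summed levels were 126 to 470 CPM (counts scaled to library size) in WT and 1101 to 1402 in KO, none of them at 0 in any library. Of these 20, limma called 10 higher, edgeR 18 and DESeq2 19. The sums were 30.1 to 49.9 CPM in WT and 97.6 to 147 in KO for 15 monocyte and macrophage markers, and 5690 to 6081 and 4923 to 5625 CPM for 14 T lineage markers. For 15 B and plasma cell markers they were 169 to 219 and 152 to 220 CPM. Only Ebf1 and Ms4a1 of these were at 0 in any library. For 10 erythroid markers the sums were 6.22 to 11.8 and 8.27 to 19.2 CPM. The B and plasma cell sums hide calls: of 13 tested, limma called 8 higher and 1 lower, with a median log2 fold change of 1.26. There edgeR called 7 higher and DESeq2 9. In limma 7 of the 15 monocyte and macrophage markers were called higher, 3 of the 14 T lineage markers lower and 0 of 8 tested erythroid markers either way. The part of these cells in the chaperone values was not tested, and in such bulk samples fewer cells of a type cannot be told apart from less RNA per cell.

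The start regions of a few members show the classical control letters of this gene group and are printed before the values. RefSeq promoter windows (GRCm38.p6, 250 bases before the start) were at hand for 71 of the 84 members. The heat shock element, bound by heat shock factors, was searched on both strands as GAA, any 2 bases, TTC, any 2 bases and GAA. An exact match was present in 3 of these 71 members, Hspd1, Hspe1 and Dnajb6, and in 0.514% of 27025 genes with a window. Imperfect matches were not searched, so a member without an exact match, such as Hsph1, Hspa1a or Hspa1b, cannot be said to lack an element. Hspa8, Hsp90aa1 and Hsp90ab1 had no window. Hspd1 and Hspe1, which encode the mitochondrial chaperonin and its lid, are transcribed away from each other on chromosome 1, and the windows of both contain the same bases, chr1:55088053-55088082, read on the minus strand for Hspd1 and on the plus strand for Hspe1. Dnajb6, a cytosolic J protein, has its match in chr5:29735844-29735873 on the plus strand. Capitals mark the matched letters, which in Hspd1 and Hspe1 are 2 overlapping matches, 1 on each strand.
Hspd1: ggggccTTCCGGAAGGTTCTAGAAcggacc
Hspe1: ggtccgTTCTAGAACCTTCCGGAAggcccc
Dnajb6: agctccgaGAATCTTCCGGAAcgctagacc

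The ER stress element, the letters bound by NF-Y together with ATF6, was searched on both strands as CCAAT, any 9 bases and CCACG. It was present in 6 members, all among the 18 ER members with a window, against 0.130% of all genes: Hspa5 (chr2:34772020-34772049, plus strand), Hsp90b1 (2 matches, chr10:86705632-86705661 and chr10:86705527-86705556, minus strand), Calr (chr8:84847069-84847098, minus strand), Canx (chr11:50325794-50325823, minus strand), Pdia6 (chr12:17266486-17266515, plus strand) and Dnajc3 (chr14:118937822-118937851, plus strand). Each segment is shown on the strand of its gene, and a match that begins with CGTGG is the motif on the other strand.
Hspa5: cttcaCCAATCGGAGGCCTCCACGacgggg
Hsp90b1, distal: caagcCCAATCGCAAGGAGCCACGcttcgg
Hsp90b1, proximal: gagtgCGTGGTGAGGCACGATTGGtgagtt
Calr: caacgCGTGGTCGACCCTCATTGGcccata
Canx: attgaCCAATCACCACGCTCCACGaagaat
Pdia6: agagaCCAATGAAAGGCGGCCACGgcgtgg
Dnajc3: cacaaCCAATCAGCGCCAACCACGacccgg

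The E-box CACGTG, a site of MYC and related factors, was in 7 of the 71 members with a window (9.86%), near the 6.86% of all genes. Calr, Dnajb9, Dnajc1, Dnajc16 and Hspbap1 were not called in limma, with log2 fold changes from -0.20 (Calr) to 0.11 (Dnajb9). Hsph1 (chr5:149636317-149636346, minus strand) and Hspd1 (chr1:55088306-55088335, minus strand) fell, and only their segments are printed. The Hspd1 match lies before a start farther upstream than that of the heat shock element. A link between this motif and the changes was not tested.
Hsph1: aagcggaagtggCACGTGgaggcgccggtg
Hspd1, upstream start: ggccggctgggaCACGTGaaaaggccgcgc

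KO was compared with WT to ask which chaperone systems change when Phf6 is lost. Abundant cytosolic chaperones were lower in the KO libraries: the constitutive HSP70 gene Hspa8, the HSP110 gene Hsph1 and 4 TRiC subunits fell. The mitochondrial chaperonin gene Hspd1 and the ER genes Pdia4 and Sdf2l1 fell too, and the J protein gene Dnajb14 rose. Dnajc6, a scarce J protein transcript, was also called higher, but it met the filter on low values through the KO libraries alone. Of the 84 members 11 were called, beside 8.75% of all genes. In all, 9 members (all 84 passed the filter on low values) fell, beside 3.43% of 17993 genes tested, and 2 were called higher (1 of them Dnajc6), beside 5.32% (limma on log2(value + 2), adjusted p threshold 0.05 over all genes). Over all genes 957 rose and 618 fell, a split that became 1213 and 300 with library totals as the scaling. Log2 fold changes were negative in 64 members, beside 51.7% of all genes (57 with library totals as the scaling, which moved the median of all genes to 0.07). In 33 members, all of them negative, the groups were apart, with every KO value below every WT value, beside 16.2% of all genes in that direction, and 5 members had every KO value above every WT value, beside 15% of all genes. The median log2 fold change of the members was -0.17, and of all genes -0.01. At an unadjusted p under 0.05 in the main limma fit 29 members were lower and 4 higher, beside 12.5% and 12.7% of all genes. Unadjusted counts given below are to be read against these shares, which were not counted for other settings. All 9 members that fell belong to the 56 with a mean of at least 1000 normalised reads; of the 7587 genes of that abundance 5.87% fell and 2.07% rose, and their median log2 fold change was -0.07. The number that fell was 1 (Hsph1) without WT library 1, 4 without WT library 3, 3 without KO library 1 and 0 without KO library 3, where 18 were lower at an unadjusted p under 0.05 in limma. edgeR on the recovered reads called 6 lower, beside 2.55% of all genes, and DESeq2 13, beside 5.02%; limma without trend and robust settings called none lower, with 20 lower at an unadjusted p under 0.05.

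**Figure D1:**
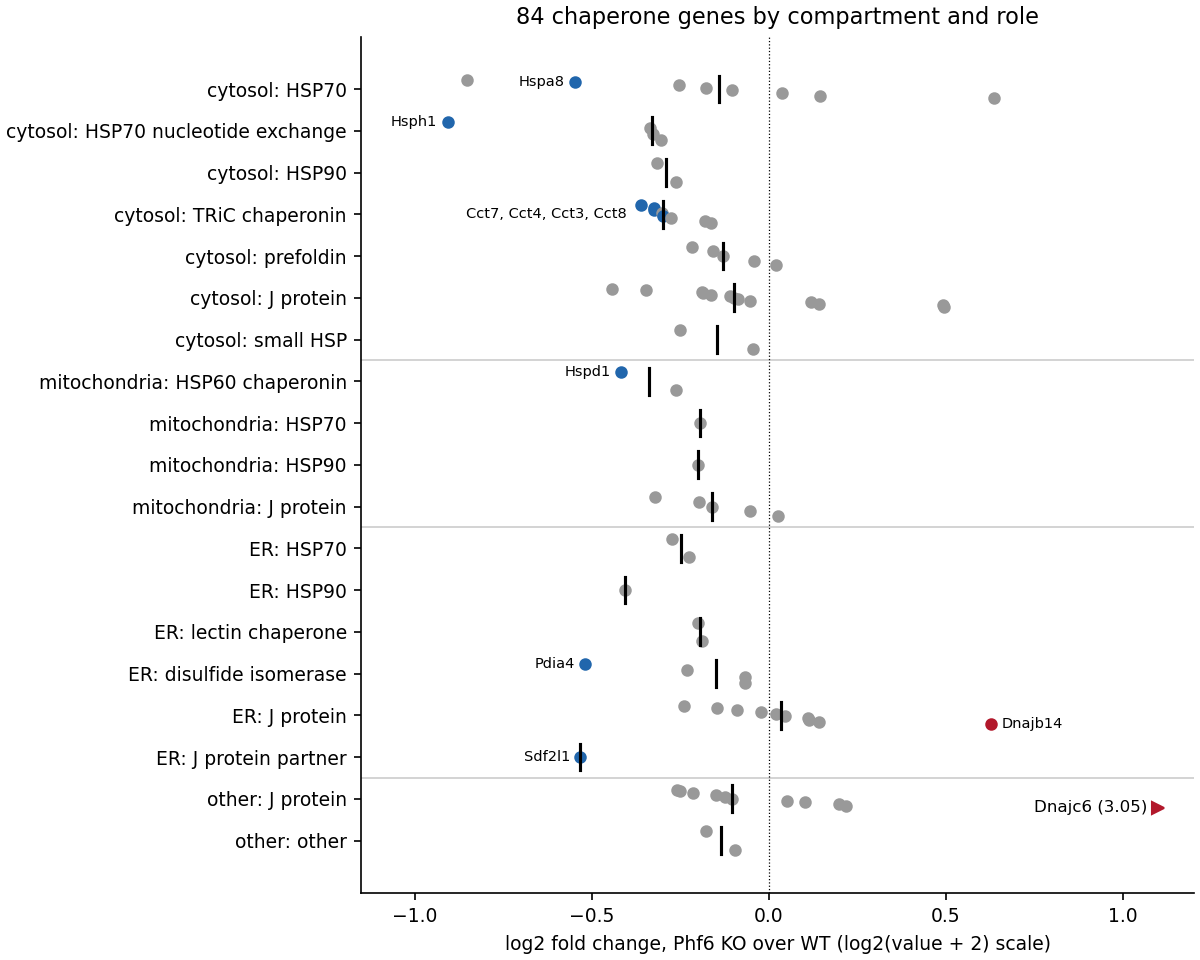
Log2 fold change, Phf6 KO over WT, of the 84 chaperone genes, with 1 point per gene, rows for compartment and role, black bars for row medians, blue for genes that fell, red for genes called higher and grey for genes that did not pass the test. TRiC lies wholly left of 0 (median -0.30), the ER J proteins lie around 0 (median 0.03), and Dnajc6, at 3.05, is drawn as an arrow at the edge.

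Counts and medians are given by compartment, and differences between compartments were not tested. The counts stand beside 3.43% of all genes that fell and 5.32% that rose in limma. Outside the cytosol, counts of 0 to 2 are too small to be set apart from these shares. Cytosolic members fell in 6 cases and rose in none of 42 (2 were higher at an unadjusted p under 0.05 in limma; edgeR called 0 higher and DESeq2 1), with a median of -0.18. In mitochondria 1 of 9 fell and none rose (0 higher at an unadjusted p under 0.05 in limma, and 0 called higher by edgeR and DESeq2), with a median of -0.20. In the ER 2 of 20 fell and 1 rose, with a median of -0.12. Among the other 13, none fell (1 lower at an unadjusted p under 0.05 in limma; 0 called lower by edgeR and DESeq2) and Dnajc6 alone was called higher, with a median of -0.10. As summed reads, cytosolic members took 1.31%, 1.33% and 1.24% of all normalised reads in WT libraries 1 to 3 and 1.12%, 1.17% and 1.06% in KO libraries 1 to 3, so the groups did not overlap. Mitochondrial members took 0.148%, 0.136% and 0.146% in WT and 0.127%, 0.128% and 0.123% in KO, again without overlap. ER members took 0.321%, 0.302% and 0.285% in WT and 0.269%, 0.309% and 0.280% in KO, where KO library 2 lay among the WT values. The other members took about the same share in all libraries, 0.0688% to 0.0702% in WT and 0.0694% to 0.0737% in KO.

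**Figure D2:**
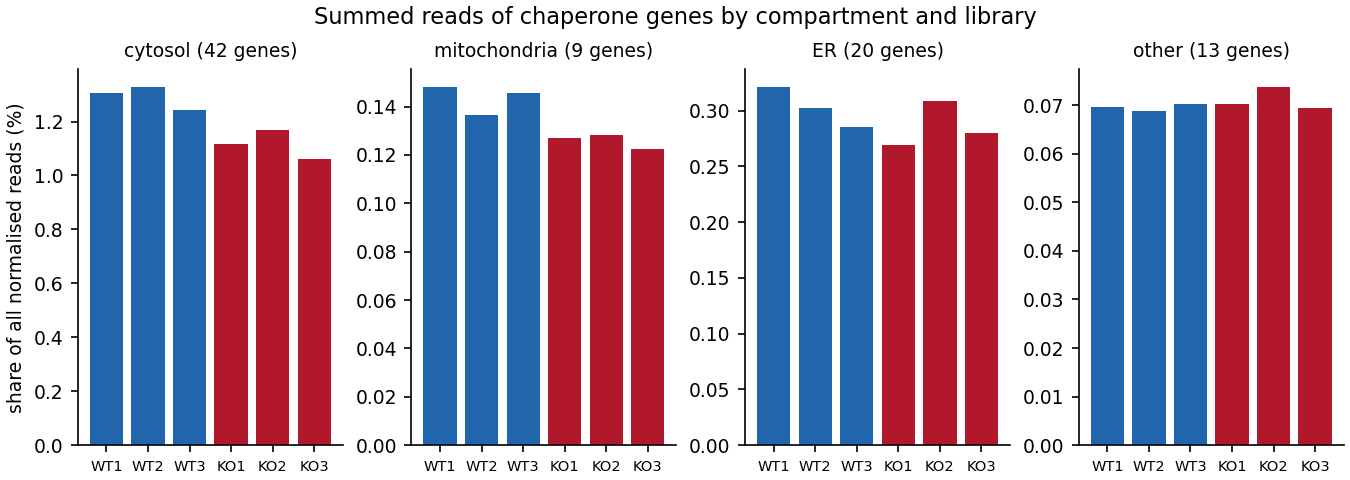
Share of all normalised reads (%) taken by the chaperone genes of each compartment, with 1 bar per library, WT in blue and KO in red, and a separate axis from 0 for each panel. Cytosolic and mitochondrial shares are lower in all 3 KO libraries (at most 1.17% and 0.128%), and ER shares overlap.

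The HSP70 system of the cytosol held the largest fall. Hsph1 (ENSMUSG00000029657, chr5:149614287-149636376, minus strand), an HSP110 protein that exchanges nucleotide on HSP70 and takes part in dissolving aggregates, had 4048, 2912 and 2736 normalised reads in WT libraries 1 to 3 and 1491, 2074 and 1582 in KO libraries 1 to 3. Every KO value was below every WT value, and WT library 1 stood highest. The group means were 3232 ± 712 and 1715 ± 314 (SD, n = 3). On the log2 scale the difference was -0.91 ± 0.17 (SE throughout for such differences; limma adjusted p = 0.0191). The limma adjusted p was 0.107 without KO library 3 and 0.0566 without KO library 1. Hspa8 (ENSMUSG00000015656, chr9:40800984-40810087, plus strand), the constitutive HSP70 that also uncoats clathrin vesicles, had 107289, 107414 and 91745 in WT and 65457, 77696 and 66544 in KO. Those groups were also apart, by -0.55 ± 0.10 on the log2 scale (limma adjusted p = 0.0124; 0.0752 without KO library 3 and 0.0654 without WT library 1). Hspa8 ranked 28 of all genes by mean reads, and it made up 94.4% ± 0.43 of the cytosolic HSP70 reads in WT and 92.9% ± 0.11 in KO (SD, n = 3).

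Other exchange factors were lower without passing the test. Hspa4, a second HSP110 protein, had 18457, 18540 and 16958 in WT and 13637, 16250 and 13281 in KO (log2 fold change -0.33 ± 0.10; limma adjusted p = 0.0630). Its relative Hspa4l had a log2 fold change of -0.30 (limma adjusted p = 0.122) and Hspbp1, a smaller HSP70 release factor, of -0.33 (limma adjusted p = 0.0778). In all 4 exchange factors the KO values lay below the WT values, beside 16.2% of all genes.

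The stress-inducible HSP70 genes Hspa1a and Hspa1b were scarce and showed no shift in 1 direction. Heat shock factor activity was not tested. Hspa1b had 117, 136 and 77.7 normalised reads in WT and 64.7, 182 and 84.2 in KO, a difference of -0.10 ± 0.38 on the log2 scale (SE; limma adjusted p = 0.893). Hspa1a had 29.0, 31.6 and 9.94 in WT and 20.9, 53.0 and 35.1 in KO (0.64 ± 0.46; limma adjusted p = 0.436). The groups overlapped in both genes, and KO library 2 was the highest of all in each. These genes are near-identical copies on chromosome 17, so reads may be split between them, and the sign for Hspa1b turned in edgeR (0.02). Per kilobase of exon, Hspa8 stood 514 to 769 times above Hspa1b in WT libraries and 279 to 660 times above it in KO libraries. Of the remaining cytosolic HSP70 genes, Hspa12a, a divergent member, had 409, 191 and 314 in WT and 177, 125 and 186 in KO, apart in all libraries and short of the threshold (-0.85 ± 0.28; limma adjusted p = 0.0940), while DESeq2 called it. Hspa14, a ribosome-bound member, had a log2 fold change of -0.18, Hspa12b of -0.25, Hspa2 of 0.14 and Hspa1l of 0.04, none past the threshold.

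The cytosolic HSP90 genes were lower by less. Hsp90ab1, the constitutive HSP90 and the fifth most abundant transcript of the table, had 214948, 224425 and 203455 in WT and 186189, 187252 and 163006 in KO. All KO values were below all WT values, and the log2 fold change of -0.26 ± 0.09 did not pass (limma adjusted p = 0.100; 0.138 in edgeR). Hsp90aa1, the more stress-responsive form, had 41587, 37074 and 33135 in WT and 28329, 33634 and 27818 in KO, where KO library 2 exceeded WT library 3 (-0.32 ± 0.11; limma adjusted p = 0.104). Per kilobase of exon, Hsp90ab1 exceeded Hsp90aa1 7.59 ± 0.70-fold in WT and 7.86 ± 0.68-fold in KO (SD, n = 3), so the balance of both forms differed by less than the spread between libraries. Hsp90ab1 and Hspa8 together made up 34.5% ± 0.55 of all reads on members in WT and 32.5% ± 0.52 in KO. Without them the summed members had 601335 ± 26405 normalised reads in WT and 517048 ± 35797 in KO.

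**Figure D3:**
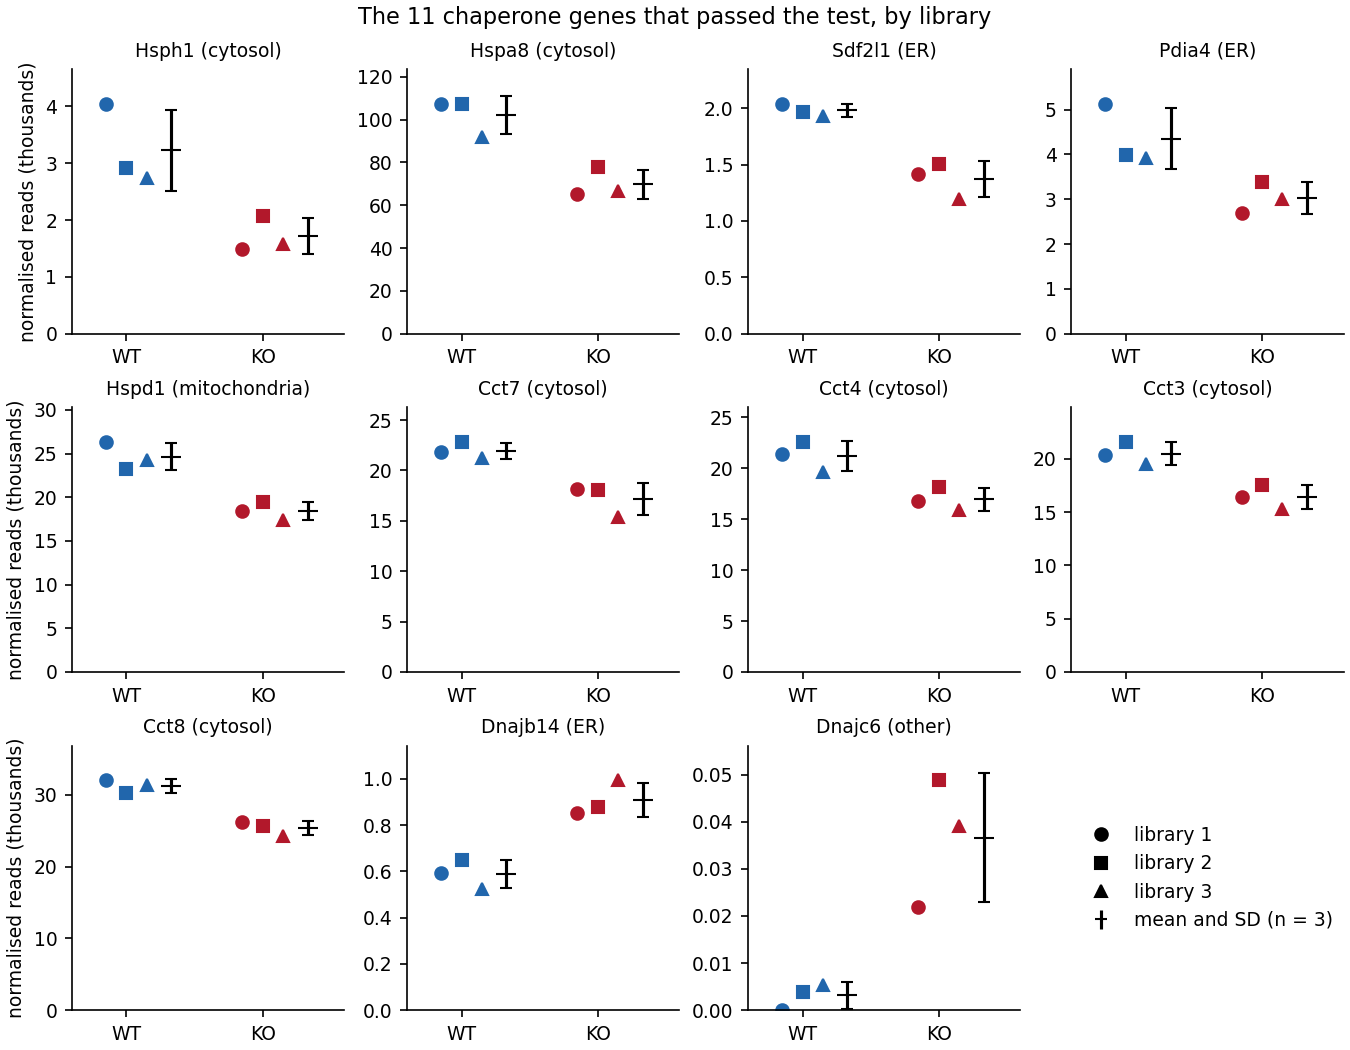
Normalised reads (in units of 1000, axes from 0) of the 11 chaperone genes that passed the test, with 1 point per library (WT blue, KO red, marker shape for the library number) and the mean with SD (n = 3) as a black bar. The groups do not overlap in any panel, and the 9 falls run from a log2 fold change of -0.91 (Hsph1) to -0.30 (Cct8).

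TRiC, the ring of 8 related subunits that folds actin, tubulin and other cytosolic proteins, was lower in every subunit. All 8 had KO values below WT values in every library, beside 16.2% of all genes. In limma 4 of 8 fell, beside 3.43% of all genes and 5.87% of genes with a mean of at least 1000 normalised reads. The median log2 fold change of the 8 was -0.30. Cct7 had 21823, 22825 and 21265 in WT and 18106, 18053 and 15330 in KO (-0.36 ± 0.09; limma adjusted p = 0.0358). Cct8, the subunit with the smallest SE, had 32074, 30256 and 31434 in WT and 26288, 25670 and 24333 in KO (-0.30 ± 0.08; limma adjusted p = 0.0402). Cct3 (-0.32; limma adjusted p = 0.0431) and Cct4 (-0.32; limma adjusted p = 0.0493) fell as well. Short of the threshold were Cct5 at -0.30 (limma adjusted p = 0.0519), Cct6a at -0.27 (0.0935), Tcp1 at -0.18 (0.177) and Cct2 at -0.16 (0.245). KO library 3 was the lowest KO library for all 8 subunits, and WT library 3 the lowest WT library for 6. In edgeR only Cct7 of the 8 was called, and adjusted p was 0.0545 for Cct3, 0.0619 for Cct4 and 0.0510 for Cct8. DESeq2 called 5 of the 8, those 4 and Cct5 (adjusted p = 0.0230). With library totals as the scaling all 8 remained negative, with a median of -0.22 and none called (limma). Leaving out any 1 of the 6 libraries ended all 4 limma calls, other than Cct8 without WT library 2: adjusted p ran from 0.127 (Cct7) to 0.171 (Cct4) without WT library 1, and from 0.111 (Cct7) to 0.163 (Cct4) without KO library 3. Cct4 was called in 5 of 17 alternatives and Cct7 in 9. Although the subunits assemble in equal numbers, their transcripts differed in level per kilobase of exon, from 2887 normalised reads for Cct7 to 12661 for Cct2 over all libraries. Cct7 overlaps Pradc1 and Cct8 overlaps Usp16 on the opposite strand, where use of strand in the counting is not given; Usp16 had a log2 fold change of -0.02 and Pradc1 of -0.20, neither past the threshold.

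Prefoldin, the jellyfish-shaped complex that hands nascent actin and tubulin to TRiC, did not share this separation. Its 5 subunits with a Pfdn symbol had log2 fold changes from -0.22 (Pfdn4) to 0.02 (Pfdn1), and the groups overlapped in each. None was called in limma, beside 8.75% of all genes (0 at an unadjusted p under 0.05 in limma, and 0 called in edgeR and DESeq2). The remaining subunit, Vbp1, which the list of cochaperones holds, overlapped too (-0.06; limma adjusted p = 0.676). Pfdn5 had 4788, 6013 and 4847 in WT and 5356, 5210 and 4587 in KO. The small heat shock proteins Hspb6 (-0.04) and Hspb9 (-0.25), the only true members of that family among the genes chosen here by symbol, overlapped too.

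**Figure D4:**
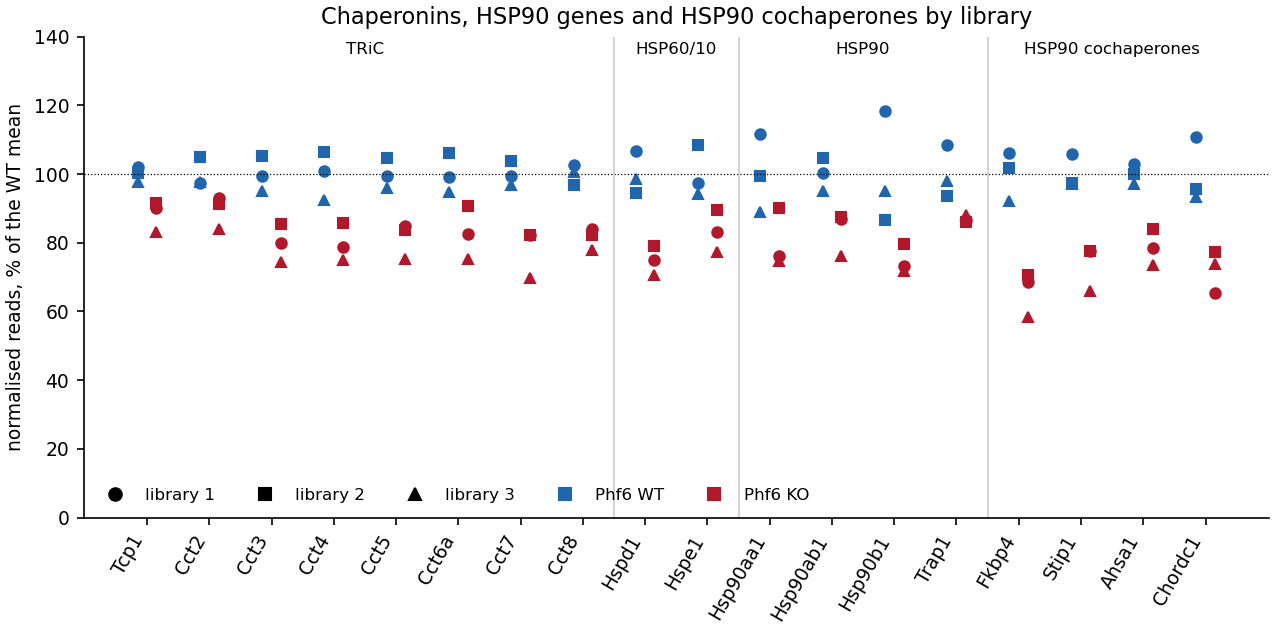
Normalised reads as % of the WT mean for TRiC subunits, the mitochondrial chaperonin, HSP90 genes and 4 proteins that bind HSP90, with 1 point per library (WT blue, KO red, marker shape for the library number). KO points lie below all WT points in each gene other than Hsp90aa1, and Fkbp4 is lowest, with a log2 fold change of -0.60. The 4 that bind HSP90 (Fkbp4, Stip1, Ahsa1 and Chordc1) are those that limma called lower in their lists. Their place below WT follows from that choice, and genes of these lists that were not called are not drawn.

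J proteins, which choose clients for HSP70 and start its ATPase, were spread around 0. Of 39 J protein genes in all compartments none fell in limma, beside 3.43% of all genes, and edgeR and DESeq2 called 0 lower. At an unadjusted p under 0.05 in limma 6 were lower, beside 12.5% of all genes. Limma called 2 higher, Dnajb14 and Dnajc6, beside 5.32% of all genes. These counts are close to the shares over all genes. Negative values were found in 23 (20 with library totals as the scaling), beside 51.7% of all genes, with a median of -0.09. Of the 45 other members 9 fell and none rose (0 higher at an unadjusted p under 0.05 in limma, and 0 called higher by edgeR and DESeq2), with a median of -0.23. The difference between both sets was not tested. In the cytosol Dnajb1, the main heat-inducible J protein, had 8729, 11150 and 7319 in WT and 8249, 10285 and 7501 in KO (-0.05 ± 0.17; limma adjusted p = 0.875). Dnaja1, a farnesylated partner of Hspa8, had 16536, 15999 and 13915 in WT and 10834, 14501 and 11376 in KO (-0.35 ± 0.12; limma adjusted p = 0.102), and Dnaja2 had a log2 fold change of -0.18. Dnajc7, which binds both HSP70 and HSP90, stood at -0.11, and Dnajc2, the ribosome-associated J protein, at -0.19 with KO values below WT values (limma adjusted p = 0.147). Dnajc12, a small J protein, had 229, 296 and 262 in WT and 216, 211 and 154 in KO, apart and short of the threshold (-0.44; limma adjusted p = 0.170). Dnajb2 (-0.16), Dnajb6 (-0.10), Dnajc24 (-0.09), Dnajb7 (0.12) and Dnajb5 (0.14) overlapped between groups. Positive values were found for Dnajb4, from 1401, 2138 and 1461 in WT to 2104, 2788 and 2074 in KO (0.49 ± 0.18; limma adjusted p = 0.136), and for Dnajb13, an axonemal J protein (0.50 ± 0.17; limma adjusted p = 0.0971). Dnajb13 lies opposite Ucp2, whose log2 fold change was -0.32.

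Both J protein genes called higher were low or moderate in level. Dnajb14 (ENSMUSG00000074212, chr3:137867675-137916557, plus strand), a J protein of the ER membrane that faces the cytosol, had 592, 650 and 525 in WT and 854, 878 and 995 in KO. The groups were apart, with a log2 fold change of 0.63 ± 0.12 (limma adjusted p = 0.0152); adjusted p was 0.0628 without WT library 1, 0.0654 without WT library 3 and 0.0874 without KO library 3. Its relative Dnajb12, which acts in the same membrane, stood at 0.05 with overlapping groups. Dnajb14 overlaps 2 provisional genes on its own strand and 2 on the other. Dnajc6 (ENSMUSG00000028528, chr4:101496648-101642799, plus strand), auxilin, which recruits Hspa8 to clathrin coats and is best known from neurons, had 0, 4 and 6 whole reads in WT libraries 1 to 3 and 21, 47 and 39 in KO libraries 1 to 3. The groups were apart. Every WT value was under the minimum of 10, so the gene was tested only because all 3 KO libraries passed it, and its limma adjusted p of 0.00986 is given as a description; with no filter on low values it was 0.00544. Its log2 fold change of 3.05 ± 0.53 depends on the pseudocount, from 1.99 with 8 to 3.90 with 0.5, and it is too scarce to be tested with a filter of 1 CPM in 3 libraries or without any 1 KO library.

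Among the J proteins outside these compartments, the KO values of Dnajc21, a factor of ribosome maturation, lay below the WT values (-0.26; limma adjusted p = 0.159), and so did those of Dnajc4 (-0.21). Dnajc5, the cysteine string protein of secretory vesicles, varied least: 9878, 9897 and 9905 in WT and 10113, 10386 and 10260 in KO, higher in every KO library by a log2 fold change of 0.05 ± 0.07 (limma adjusted p = 0.700). Dnajc27 (0.10) was also higher in every KO library. Dnajc9, a histone chaperone of replicating cells (-0.15), Dnajc8, a splicing factor (-0.12), Dnajc13, an endosomal protein (-0.10), Dnajc28 (-0.25), Dnajc25 (0.20), and Dnajc17 (0.22) overlapped between groups, as did Hspb11 (-0.09) and Hspbap1 (-0.18).

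In mitochondria the matrix chaperonin was lower. Hspd1 (HSP60; ENSMUSG00000025980, chr1:55077835-55088243, minus strand), whose rings fold imported proteins, had 26339, 23282 and 24327 in WT and 18470, 19476 and 17425 in KO. The groups were apart, with a log2 fold change of -0.42 ± 0.08 (limma adjusted p = 0.0174); adjusted p was 0.0894 without WT library 1, 0.0639 without WT library 3 and 0.0825 without KO library 3. Hspe1 (HSP10), the lid of that ring and the other gene of the shared start region printed above, had 7195, 8007 and 6948 in WT and 6149, 6622 and 5716 in KO, also apart but short of the threshold (-0.26 ± 0.09; limma adjusted p = 0.102). Per kilobase of exon, Hspd1 exceeded Hspe1 1.87 ± 0.22-fold in WT and 1.67 ± 0.03-fold in KO (SD, n = 3), with overlapping ranges. The annotated genes overlap at their starts on opposite strands. Hspa9, the matrix HSP70 that pulls proteins through the import pore, stood at -0.19 (limma adjusted p = 0.172). Trap1, the matrix HSP90, stood at -0.20 (limma adjusted p = 0.159) and Dnaja3, a mitochondrial J protein, at -0.32 (limma adjusted p = 0.0732). In each of these genes KO values lay below WT values, beside 16.2% of all genes. Dnajc15 was also lower in every KO library (-0.20), whereas Dnajc11, of the inner membrane's contact sites (-0.16), Dnajc30 (-0.05) and Dnajc19, of the import motor (0.03), overlapped.

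In the ER 2 genes of protein folding fell. Sdf2l1 (ENSMUSG00000022769, chr16:17130138-17132383, minus strand), a stress-inducible partner of ER J proteins, had 2039, 1966 and 1933 in WT and 1416, 1509 and 1199 in KO, well apart (-0.53 ± 0.10; limma adjusted p = 0.0151; 0.0746 without WT library 1 and 0.0656 without KO library 3). Pdia4 (ENSMUSG00000025823, chr6:47796141-47813430, minus strand), a disulfide isomerase with an extra thioredoxin-like domain, had 5129, 3978 and 3929 in WT and 2684, 3387 and 2997 in KO (-0.52 ± 0.12; limma adjusted p = 0.0321). Its adjusted p was 0.124 without WT library 1, 0.0965 without KO library 1, 0.139 without KO library 3 and 0.0562 with library totals as the scaling. Hsp90b1, the ER HSP90 (GRP94), had 12974, 9498 and 10438 in WT and 8023, 8737 and 7868 in KO, apart and just short of the threshold in limma (-0.41 ± 0.11; adjusted p = 0.0550), and DESeq2 called it.

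The central ER chaperone did not separate the groups. Hspa5 (BiP), the ER HSP70 and chief sensor partner of the unfolded protein response, had 32032, 36887 and 25355 in WT and 23246, 33847 and 23845 in KO (-0.23 ± 0.18; limma adjusted p = 0.487). WT library 2 and KO library 2 were the highest of their groups. Calr and Canx, the lectins that hold glycoproteins for folding, stood at -0.20 (limma adjusted p = 0.328) and -0.19 (0.206), and Pdia3, the isomerase that works with them, at -0.07 (0.693), a sign that turned with library totals as the scaling (0.02). Pdia6 was lower in every KO library (-0.23; limma adjusted p = 0.127), Pdia5 overlapped (-0.07), and Hspa13 stood at -0.27 (0.247). The ER J proteins other than Dnajb14 ran from -0.24 (Dnajc18) to 0.14 (Dnajc14): the luminal Dnajb11 had -0.02, Dnajc3 0.02, Dnajc10 -0.09 and the stress-induced Dnajb9 0.11, all with overlapping groups, while Dnajc1 (-0.15) and Dnajc18 had KO values below WT values. Dnajb12 was described with Dnajb14, and Dnajc16 stood at 0.11. Of the 6 genes with the ER stress element printed above none passed in limma (Hsp90b1 and Pdia6 were lower at an unadjusted p under 0.05; edgeR called 0 and DESeq2 called Hsp90b1). Sdf2l1 and Pdia4 had no match to those letters in their windows.

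**Figure D5:**
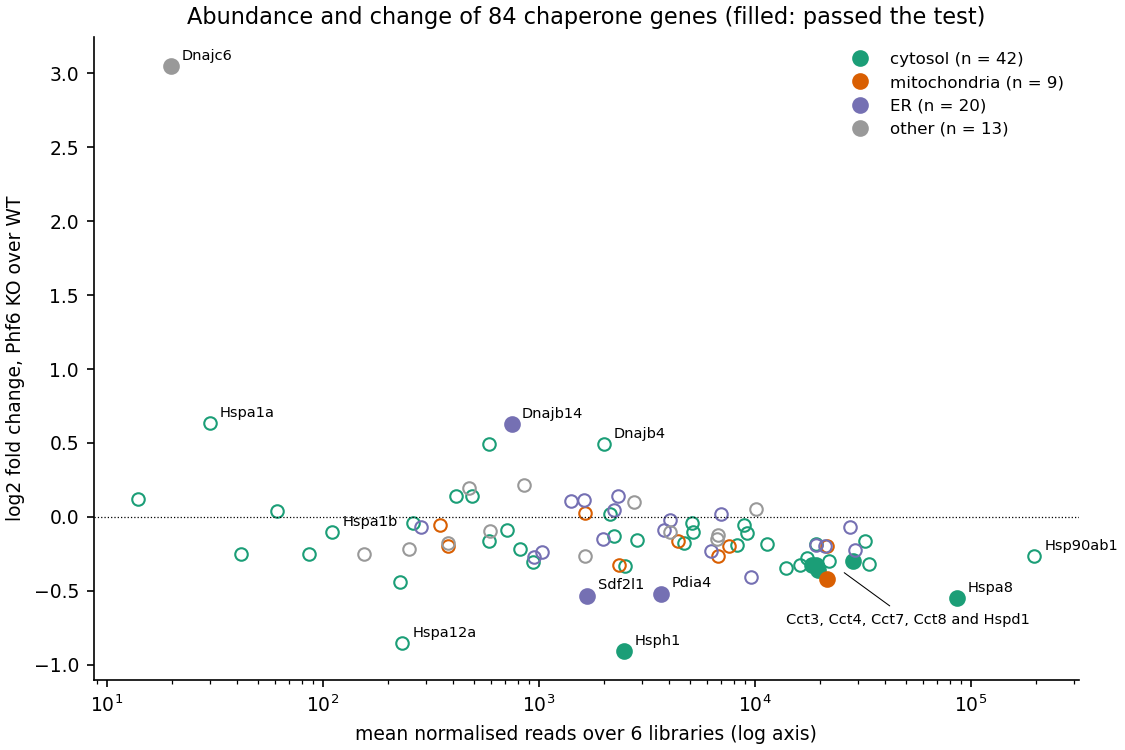
Log2 fold change, Phf6 KO over WT, against mean normalised reads over 6 libraries (log axis) for the 84 chaperone genes, coloured by compartment, filled where the gene passed the test. The 9 falls lie above 1000 normalised reads and the 2 called higher, Dnajb14 and Dnajc6, below.

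Genes that work with these chaperones were read from lists of cochaperones, import factors and regulators. Of 30 cytosolic cochaperones 3 fell, beside 3.43% of all genes, and the median over the list was -0.09. None rose (0 higher at an unadjusted p under 0.05 in limma, and 0 called higher by edgeR and DESeq2). Fkbp4, an immunophilin of steroid receptor complexes, had 16261, 15609 and 14142 in WT and 10533, 10830 and 8945 in KO (-0.60 ± 0.10; limma adjusted p = 0.00717). Stip1 (HOP), which links HSP70 to HSP90, had 15055, 13852 and 13808 in WT and 11043, 11034 and 9401 in KO (-0.44 ± 0.09; limma adjusted p = 0.0178). Ahsa1 (AHA1), the activator of the HSP90 ATPase, stood at -0.35 (limma adjusted p = 0.0271), and Ppid at -0.35 (0.0504). KO values lay below WT values in each of these 4 genes, beside 16.2% of all genes. They were named for having the smallest p in the list. With library totals as the scaling 2 of the 30 fell and 16 were negative, against 24.

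Of 7 heat shock regulators Chordc1, an HSP90-binding protein, fell (-0.47 ± 0.10, limma adjusted p = 0.0198) and none rose (0 higher at an unadjusted p under 0.05 in limma, edgeR and DESeq2 0 higher). Over all genes 3.43% fell and 5.32% rose in limma, and 1 call among 7 genes is too few to be set apart from these shares. Hsf1, the master regulator of the heat shock response, had 3860, 3988 and 3780 in WT and 3126, 3299 and 3388 in KO, apart and short of the threshold (-0.25 ± 0.08; limma adjusted p = 0.0792). In the list of mitochondrial import factors and proteases all 25 genes had negative log2 fold changes, from -0.33 (Timm17b) to -0.01 (Lonp1), beside 51.7% of all genes. The list median was -0.12, and that of all genes with a mean of at least 1000 normalised reads was -0.07. With upper-quartile scaling 23 were negative, and with library-total scaling 20. None was called in limma, where 8 were lower at an unadjusted p under 0.05, beside 12.5% of all genes. edgeR called 0 lower and DESeq2 1. Phb, of the prohibitin ring, came nearest (-0.30; limma adjusted p = 0.0529).

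Of 40 genes of ER folding and quality control none fell in limma, beside 3.43% of all genes, and 1 rose, beside 5.32%. The median was -0.02 (0.06 with library totals as the scaling). At an unadjusted p under 0.05 in limma 3 were lower, beside 12.5% of all genes. edgeR called 0 lower and DESeq2 1. The gene that rose was Tmx4, a membrane-bound thioredoxin-like protein, with 1344, 1760 and 1299 in WT and 2087, 2627 and 2127 in KO (0.64 ± 0.14; limma adjusted p = 0.0216). Hyou1, the ER HSP110, stood at -0.28 (limma adjusted p = 0.102), and P4hb, the archetype disulfide isomerase, at -0.01. Of 17 regulators of the unfolded protein response 1 fell and none rose in limma, near the same 3.43% and 5.32% of all genes. At an unadjusted p under 0.05 in limma 1 was higher. edgeR called 0 and DESeq2 1 higher, and 1 rose in limma with library totals as the scaling. Atf6b, a paralog of the ER stress sensor Atf6, had 3669, 3536 and 3574 in WT and 2728, 2593 and 2567 in KO (-0.45 ± 0.08; limma adjusted p = 0.00893). Atf6 itself stood at -0.43 (limma adjusted p = 0.0876), Ern1, which encodes the IRE1 sensor, at 0.44 (0.0570), and its target Xbp1 at 0.07 (0.931).

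Libraries within a group differed in the same direction over many members. KO library 2 was the highest KO library for 54 of 84 members and KO library 3 the lowest for 43. Among WT libraries, library 2 was highest for 39 members, among them 26 of 42 cytosolic ones, and library 1 for 14 of 20 ER members. These counts describe the 6 libraries and carry no test. The same order was not counted over all genes, so it cannot be called particular to the chaperone genes.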

How the data were processed

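Values per gene are a deposited signal that was already scaled by the authors. In each column every value is a whole multiple of 1 step (100% of values within 0.01), so the table was taken as gene counts scaled once per library, and whole reads were recovered from it. bcl2fastq 1.8.4, STAR 2.6.0a, featureCounts, DESeq2 and GRCm38 are named in the submitters' processing notes; no source used here gives the annotation, strand setting or treatment of multi-mapping reads. Of 23314 rows, 8 without an identifier (at most 0.00106% of reads) were left out. limma 3.58.1 (R 4.3.3), with trend and robust settings and the group as its only term, was run on log2(value + 2) for genes with at least 10 in at least 3 libraries, with Benjamini-Hochberg adjustment over 17993 genes. edgeR 4.0.16 and DESeq2 1.42.0 used the recovered whole reads. Positions and exon lengths are from GENCODE M21 (GRCm38), which held 23277 of the 23306 identifiers, and promoters from RefSeq (GRCm38.p6); 13 members without an entry are Cct4, Dnajc11, Dnajc12, Dnajc18, Dnajc2, Dnajc30, Dnajc5, Hsp90aa1, Hsp90ab1, Hspa13, Hspa8, Hspa9 and Pfdn1. Tested on simulated data, the fit made a larger share of false calls than its threshold sets and missed most of the smaller changes, of the size of many differences described here. Alternatives were TMM, upper-quartile and library-total scaling, other filters and pseudocounts, limma without trend and robust settings, the replicate number as a block, and each library left out in turn. Members, compartments and lists were chosen with earlier results of these data known. Named were all members that passed, the chaperonins, HSP90 and main HSP70 genes, in each compartment the 3 members of smallest p and of highest mean, and in each list of related genes those called and up to 4 of smallest p; other members and genes are named to account for their group and were chosen after their values were seen.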

Additional observations from a re-analysis of the deposited data

How the results depend on the processing

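Main counts were 9 members lower and 2 higher, with 6 cytosolic, 1 mitochondrial and 2 ER members lower. Library-total scaling gave 4 lower, 2 cytosolic and 1 ER. limma without trend and robust settings gave 0 lower (0 cytosolic, 0 mitochondrial, 0 ER) and 1 higher, with 20 lower and 3 higher at an unadjusted p under 0.05. The filter of 1 CPM in 3 libraries gave 1 higher, since Dnajc6 was not tested, and edgeR gave 3 cytosolic members lower. With the replicate number as a block, counts were 18 lower and 4 higher, with 12 cytosolic and 3 mitochondrial lower; same-numbered libraries had correlations of 0.012, 0.50 and 0.14, and not every library correlated best with its own number, so the numbers were not taken as pairs. Leaving out 1 library at a time gave 0 to 9 lower, 0 to 4 higher, 0 to 4 cytosolic, 0 to 2 mitochondrial and 0 to 3 ER members lower. Without KO library 3 no member passed in limma, with 18 lower and 3 higher at an unadjusted p under 0.05. Over all genes, 957 were higher and 618 lower, against 1213 and 300 with library totals, 1329 and 904 in DESeq2, 936 and 459 in edgeR, 528 and 124 without trend and robust settings, and 134 and 57 without KO library 3. Among 34 named members, 494 of 573 alternative values kept direction and side of the threshold. None of the 11 called members reversed. Pdia3 turned to 0.018 with library totals, and Hspa1b to 0.019 in edgeR and 0.014 in DESeq2; with 1 library left out, Hspa1b ran from -0.53 (without KO library 2) to 0.20 (without KO library 1), with 0.064 without WT library 2 and 0.016 without KO library 3. The cause was not tested. Depth limits Dnajc6, Dnajb7 and Hspa1a, with at most 51 reads in a library.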
